A study of Mus musculus with 4 samples.

Results

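The 7 genes described here encode lectin-like receptors best known from natural killer (NK) cells: Klrb1c (NK1.1), Klrd1 (CD94), Klrc1 (NKG2A), Klrc2 (NKG2C), Klrk1 (NKG2D), Klrg1 (KLRG1) and Klre1. They were taken as a named list whose rule uses no measured value, and all 7 were found among the 17561 genes of the deposited table. The cells were CD8+ T cells sorted from the bone marrow (BM) of mice at week 4 after stem cell transplantation (SCT) for myeloma. Recipients were on a C57BL/6 background, either WT or CRBN transgenic (a modified cereblon lets lenalidomide act in mice), and received grafts from matched donors. Each of 4 groups was 1 library from 5 pooled mice: Isotype control + vehicle, Isotype control + Lenalidomide, TIGIT inhibition + vehicle and TIGIT inhibition + lenalidomide. Antibody or isotype was given from the day of transplant, and lenalidomide or vehicle from day 14. The mice were female and 8 to 12 weeks old.

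The table marks libraries only by a number from 1 to 4 that no label ties to a treatment, so treatments were not compared and each value is given by library number. Libraries 1 to 4 held 4237, 2003, 1725 and 3789 cells, with 15556967 to 38440687 unique molecular identifiers (UMIs, each counting 1 captured transcript) per library and a median of 7115 to 7669 per cell. The authors had assigned the 11754 cells to 8 clusters: naive (Tn, 1342 cells), central memory (Tcm, 3418), transitory effector (transitory Teff, 1891), GzmB+ Teff (732), TIGIT+ Teff (816), GzmA+ exhausted (GzmA+ Tex, 571), TIM-3+ Tex (1056) and cycling cells (1928). These clusters were made from the genes of the same cells, so differences between clusters are descriptions and carry no test.

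NK receptors let cytotoxic cells weigh activating against inhibitory signals from the cells they touch, and CD8+ T cells gain several of them with antigen experience or under IL-15. CD94 reaches the surface as a pair with NKG2A, which carries inhibitory motifs, or with NKG2C, which signals through the adaptor DAP12 (Tyrobp), and both pairs bind the non-classical MHC molecule Qa-1. NKG2D binds stress-induced ligands such as RAE-1, H60 and MULT1 and signals through DAP10 (Hcst), NK1.1 activates through the Fc receptor gamma chain (Fcer1g), and KLRG1 is an inhibitory receptor for cadherins that marks terminal effector cells. KLRE1 pairs with KLRI1 or KLRI2.

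All 7 genes lie on mouse chromosome 6 and are protein coding in the GENCODE annotation of GRCm38. Klre1 (chr6:129577905-129585827, plus strand), Klrd1 (chr6:129591782-129598775, plus), Klrk1 (chr6:129610323-129623864, minus), Klrc2 (chr6:129647496-129660689, minus) and Klrc1 (chr6:129666015-129678973, minus) form a block of 101 kb. Klrb1c (chr6:128778485-128789215, minus) lies outside this block, and Klrg1 (chr6:122270596-122282882, minus) starts 6508 kb from Klrb1c. Promoter sequences from RefSeq (250 bases before to 50 after a start, GRCm38.p6) were at hand for 5 of the 7 genes. They are shown because all 5 held the letters TGTGGT (the Runx core, searched on both strands, ACCACA on the other), which stood in 16.8% of 32851 promoters of the same length. The letters GGTGTGA (T-box, in 3.98% of promoters) and CCGGAAG (Ets, 8.86%) were in none of the 5, and CAGGTG (E-box, 20.2%) was in Klrc2 alone. A match is a description of these letters and not a bound site. Each sequence is written 5′ to 3′ on the gene's own strand with the match in capitals:
Klrb1c (chr6:128788665-128788790, minus strand, intronic in GENCODE): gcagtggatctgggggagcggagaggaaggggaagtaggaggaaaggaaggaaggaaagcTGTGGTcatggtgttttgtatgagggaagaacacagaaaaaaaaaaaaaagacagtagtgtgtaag
Klrk1 (chr6:129623928-129624053, minus strand, outside GENCODE genes): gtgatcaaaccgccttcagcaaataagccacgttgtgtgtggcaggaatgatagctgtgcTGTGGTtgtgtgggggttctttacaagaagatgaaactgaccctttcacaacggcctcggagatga
Klrc1 (chr6:129678995-129679120, minus strand, outside GENCODE genes): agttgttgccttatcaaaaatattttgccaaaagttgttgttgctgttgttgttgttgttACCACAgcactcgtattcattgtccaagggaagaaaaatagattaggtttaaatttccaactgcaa
Klre1 (chr6:129577972-129578001, plus strand, exonic): ttgtgtttaagcTGTGGTtccagagagtca
Klrc2 (chr6:129660615-129660644, minus strand, exonic): ttcaatagaatcACCACAgcatagaacaca
The matches began 89 bases before the RefSeq start in Klrb1c, 129 before it in Klrk1, 87 before it in Klrc1 and 229 before it in Klre1. In Klrc2 there were 2 matches, 36 and 9 bases before the first of its starts. The match stood as ACCACA in Klrc1 and Klrc2, and as TGTGGT in the other 3.

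Levels are given as UMIs of the gene per 1000000 UMIs of all genes (CPM), summed over the cells of a cluster in 1 library. Counts came from the 5′ end of transcripts, so levels are compared between cells for 1 gene and not between genes. Intervals are 95% intervals that cover counting error only, since cells are not replicates. The plot of levels by cluster and library shows the pattern that the next paragraphs give in numbers.

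**Figure D1:**
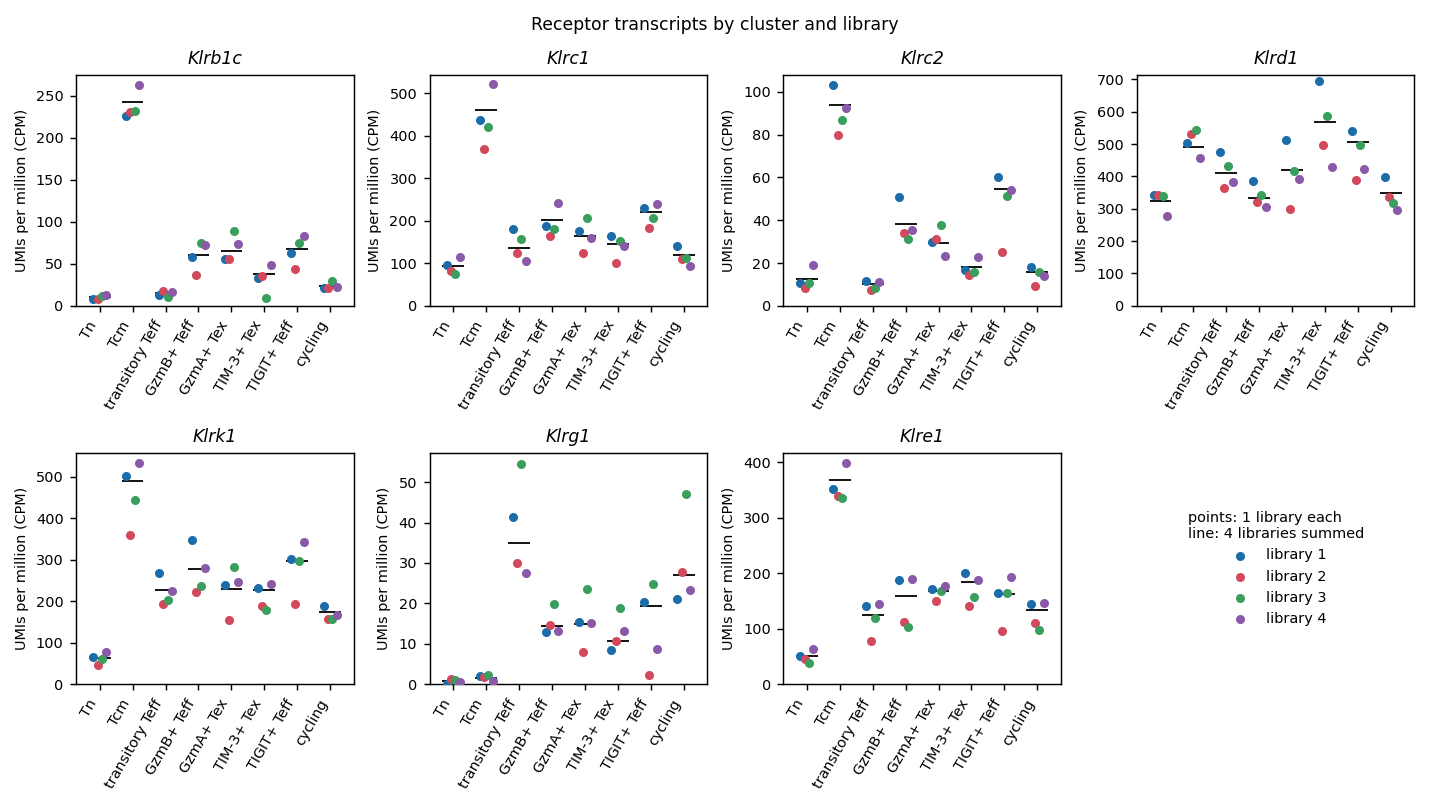
Level of each receptor gene (CPM, vertical axis) in the 8 clusters (horizontal axis), with 1 point per library and a line for the 4 libraries summed. The 4 Tcm points of Klrb1c sit between 225 and 263 CPM, above every other cluster, whereas those of Klrg1 lie at 2.32 CPM or less.

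NK1.1, the receptor that names NK cells in this strain, had its highest level in Tcm. Klrb1c stood at 225, 231, 232 and 263 CPM in Tcm of libraries 1 to 4, and at 8.21, 7.99, 12.3 and 12.7 CPM in Tn. Transitory Teff held 13.1, 17.4, 11.1 and 16.8 CPM, close to Tn, and cycling cells 21.7, 21.7, 29.7 and 22.2 CPM. The Tcm values overlapped with those of no other cluster, and over all libraries Tcm exceeded Tn by 23.2-fold (19.2 to 28.1). A Klrb1c UMI was found in 69.4% of Tcm cells and 6.11% of Tn cells. With every cell thinned at random to 2500 UMIs, to put all clusters at 1 depth, the shares were 41.3% and 2.09%. Below Tcm came TIGIT+ Teff, GzmA+ Tex, GzmB+ Teff and TIM-3+ Tex, from 67.2 down to 38.3 CPM, and neighbours in this order overlapped between libraries.

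CD94 was the most evenly spread of the 7. Klrd1 stood at 503, 530, 542 and 458 CPM in Tcm, at 342, 344, 338 and 278 CPM in Tn, and at 475, 365, 433 and 382 CPM in transitory Teff. TIM-3+ Tex had the highest pooled level, at 694, 497, 587 and 428 CPM. In the order of the 8 clusters no neighbouring pair was separated beyond the range of the libraries, from TIM-3+ Tex at the top (567 CPM pooled) to Tn at the bottom (323 CPM). Tcm exceeded Tn by 1.52-fold (1.47 to 1.58), and the Tn and Tcm values did not overlap. A Klrd1 UMI was already found in 81.5% of Tn cells, and in 92.9% of Tcm cells.

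Its partners were far more restricted. NKG2A (Klrc1) stood at 436, 368, 421 and 522 CPM in Tcm, against 96.6, 83.1, 75.6 and 115 CPM in Tn. NKG2C (Klrc2) stood at 103, 79.7, 86.7 and 92.4 CPM in Tcm, against 10.6, 8.39, 10.8 and 19.0 CPM in Tn. For both genes the 4 Tcm values lay above all values of every other cluster, and the ratio of Tcm to Tn was 4.92-fold (4.62 to 5.25) for Klrc1 and 7.46-fold (6.28 to 8.92) for Klrc2. In transitory Teff, Klrc1 was at 181, 124, 157 and 106 CPM, which overlapped with Tn and was below it in library 4. Klrc2 was at 11.7, 7.57, 8.11 and 10.9 CPM there, a level like that in Tn. Klrc1 and Klrc2 are near copies, with 36.5% of the 50-base stretches of Klrc1 exons also present in Klrc2 and 22.4% the other way. Reads from these stretches cannot be assigned to one gene, so both levels are uncertain. These shares are of whole exons and counts came from the 5′ end, so the part of the counts affected is not known. Klrb1c shares 3.56% of its stretches with Klrb1a, and 1186 of its exon bases overlap Gm44511 on the same strand. Gm44511 is not among the genes of the deposited table. The counts of Klrb1c carry a like uncertainty.

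Transcripts of CD94 and a partner were next counted in the same cell. In Tcm, 76.5% of cells had UMIs of both Klrd1 and Klrc1, compared to 29.2% in Tn and 29.2% in transitory Teff. Klrd1 together with Klrc2 was seen in 42.0% of Tcm and 7.45% of Tn cells. Cells with Klrd1 and neither partner made up 9.19% of Tcm, 49.6% of Tn and 37.9% of transitory Teff. At 2500 UMIs per cell the same order held, with Klrd1 and Klrc1 together in 42.0%, 9.84% and 13.3% of Tcm, Tn and transitory Teff, and Klrd1 with neither partner in 20.98%, 40.5% and 35.7%. A cell without a UMI may still hold the transcript.

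NKG2D (Klrk1), an activating receptor, stood at 503, 360, 443 and 533 CPM in Tcm and at 66.5, 45.2, 60.3 and 76.4 CPM in Tn. Its levels in transitory Teff (268, 193, 203 and 225 CPM) and in cycling cells (189, 156, 158 and 167 CPM) lay between these, with no overlap with either. Tcm exceeded Tn by 7.78-fold (7.20 to 8.41). The 5 Teff and Tex clusters together exceeded Tn by 3.90-fold, and the lowest of their library values, 154 CPM in GzmA+ Tex, was above the highest in Tn.

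Klre1 followed the same course. It stood at 352, 340, 335 and 399 CPM in Tcm, at 51.6, 45.6, 38.7 and 63.7 CPM in Tn, and at 141, 77.4, 119 and 145 CPM in transitory Teff. Tcm lay above all other clusters and Tn below all of them, with a ratio of 7.27-fold (6.67 to 7.94) between the pair. A Klre1 UMI was found in 86.8% of Tcm and 19.3% of Tn cells.

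KLRG1 was the exception. Klrg1 was at 2.08, 1.78, 2.32 and 0.849 CPM in Tcm and at 0, 1.199, 1.12 and 0.634 CPM in Tn, and it was highest in transitory Teff (41.5, 29.96, 54.5 and 27.5 CPM) and in cycling cells (21.1, 27.8, 47.2 and 23.4 CPM). Every value of transitory Teff, GzmB+ Teff, GzmA+ Tex, TIM-3+ Tex and cycling cells lay above the Tcm values, whereas TIGIT+ Teff reached down to 2.28 CPM in library 2, where it had 50 cells. Tcm held 0.0759 of the level of the 5 Teff and Tex clusters (0.0539 to 0.104). The ratio of Tcm to Tn was 2.13 (0.982 to 5.26), an interval that includes no difference. In Tn of library 1, 0 of 330 cells had a Klrg1 UMI, which allows a share of up to 0.909%. Over all libraries 0.522% of Tn cells (0.210 to 1.07) and 0.936% of Tcm cells (0.641 to 1.32) had one, at a median of 7834 and 6958 UMIs per cell, with intervals that overlap. In transitory Teff the share was 13.5%, at a lower median of 5545 UMIs, and in cycling cells 18.9% at 13960 UMIs. At 2500 UMIs per cell these shares were 7.77% and 6.02%, against 0.410% in Tcm and 0.0745% in Tn.

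To set the receptors against other genes, a gene was counted as higher or lower where the ratio of (CPM + 10) passed 2, upwards or downwards, in all 4 libraries alike. Between Tcm and Tn, 5 of the 7 receptors were higher (Klrb1c, Klrc1, Klrc2, Klrk1 and Klre1) and 0 lower, where 0.655% of 10991 genes were higher and 0.164% lower. Klrc2 was nearest to the threshold on the inside, at 1.82 on the log2 scale in library 4, and Klrd1 was outside it at 0.55 to 0.70. Between the 5 Teff and Tex clusters together and Tn, 4 were higher (Klrb1c, Klrk1, Klrg1 and Klre1; 1.75% of genes) and 0 lower (0.182%). Between Tcm and the Teff and Tex clusters, 3 were higher (Klrb1c, Klrc1 and Klrc2; 0.227%) and Klrg1 alone was lower (0.974%). Klre1 missed the higher count through library 1, at 0.98 on the log2 scale. Between cycling cells and the Teff and Tex clusters 0 receptors were higher (2.52%) and 0 lower (0.0637%). In that last comparison the pooled CPM ratios ran from 0.537 (Klrb1c) to 1.31 (Klrg1).

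**Figure D2:**
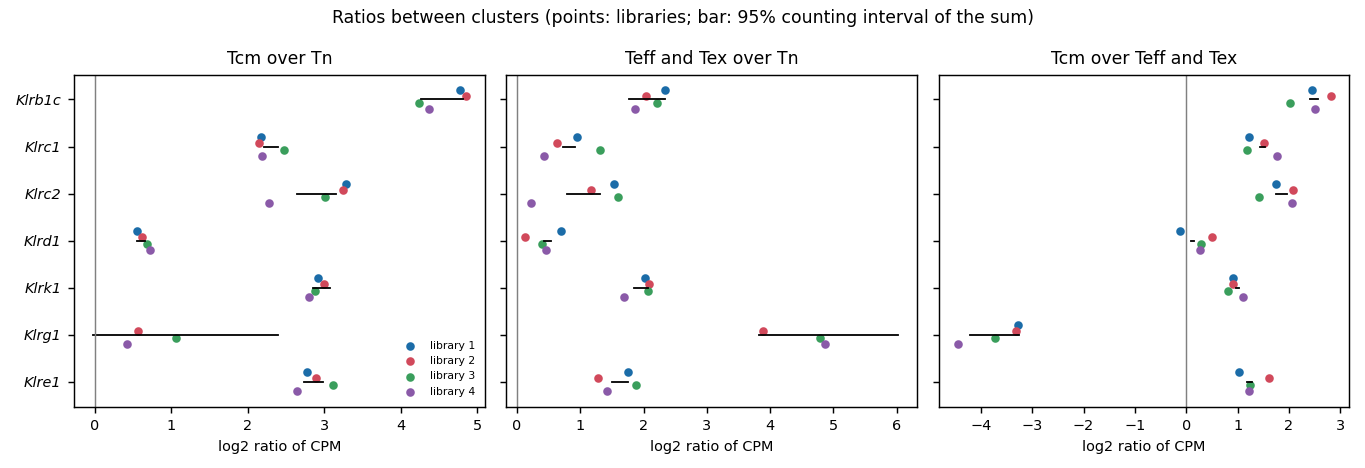
Log2 ratio of CPM for each receptor gene in 3 comparisons between clusters, with 1 point per library and a bar for the 95% counting interval of the sum (libraries with no UMI on one side are not drawn). Klrb1c lies at 4.24 to 4.85 for Tcm over Tn, and Klrg1 lies below 0 for Tcm over the Teff and Tex clusters in every library.

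Single Tcm cells held transcripts of several receptors. At 2500 UMIs per cell, a Tcm cell had UMIs of 3.11 of the 7 genes on average (2.84 to 3.24 over libraries), against 0.919 in Tn (0.898 to 0.961), 1.37 in transitory Teff, 1.33 in cycling cells and 1.92 in TIGIT+ Teff. No receptor was seen in 1.90% of Tcm cells (1.37 to 4.52), compared to 35.8% of Tn (32.5 to 38.4) and 30.9% of transitory Teff. At least 4 of the 7 were seen in 39.4% of Tcm and 1.19% of Tn cells.

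**Figure D3:**
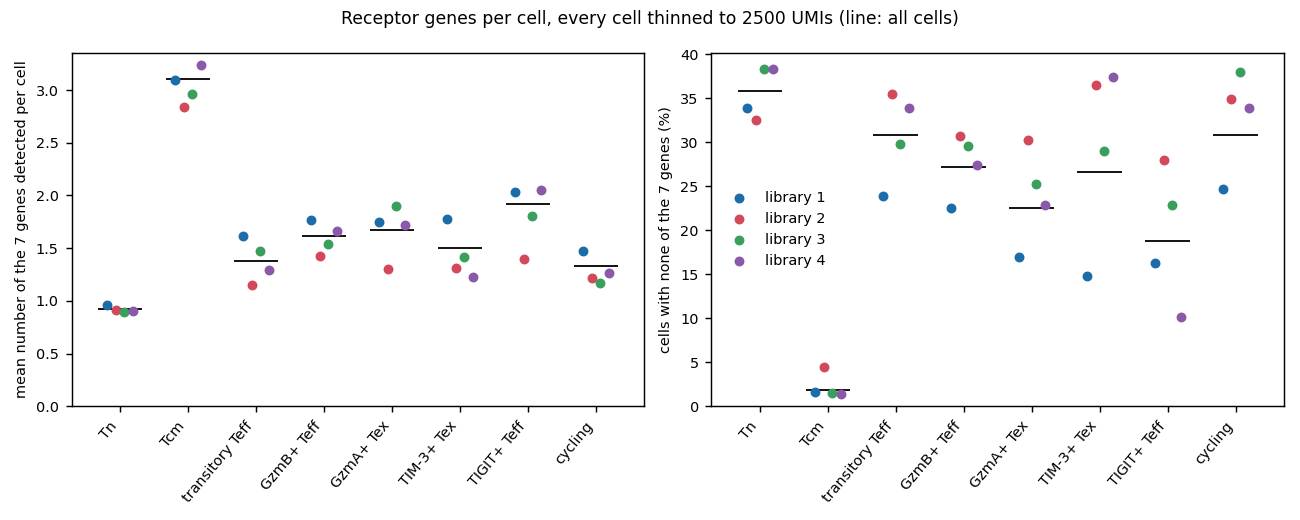
Mean number of the 7 receptor genes with a UMI per cell (left) and share of cells with none of them (right, percent) in the 8 clusters, every cell thinned to 2500 UMIs. Points are libraries and lines all cells, with Tcm highest on the left (3.11) and lowest on the right (1.90%).

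Whether the receptors fell in the same cells within a cluster was asked next, with the odds ratio of finding both genes of a pair in a cell. An odds ratio of 1 means that the genes are found together as often as their single shares give, and pairs with at least 5 expected cells were counted where the ratio was at least 1.5 in each of the 4 libraries. In Tcm, 4 of 21 pairs passed on all UMIs and 0 of 20 at 2500 UMIs per cell, with a median odds ratio of 1.47 and 1.16. In transitory Teff, 16 of 21 passed on all UMIs and 11 of 18 at 2500 UMIs, with medians of 4.36 and 2.21. Deeper cells show more of every gene, so values at equal depth are given from here on.

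In transitory Teff the strongest association was that of NKG2D with KLRE1, at an odds ratio of 4.36 for Klrk1 and Klre1 (2.39 to 6.35 over libraries). Klrd1 went with Klre1 at 3.64 (2.46 to 6.81) and with Klrk1 at 3.23 (2.42 to 3.71). The inhibitory heterodimer pair, Klrc1 with Klrd1, was at 1.98 (1.66 to 2.49), and Klrc1 with Klrk1 was at 2.21 (2.03 to 2.44). Klrc1 and Klrc2 were at 3.71 (2.30 to 24.4), and the part of the stretches that these near copies share was not tested. Klrg1, though it did not follow the others between clusters, went with Klre1 at 2.22 (1.98 to 3.37) and with Klrk1 at 1.88 (1.53 to 2.23). In Tcm the same pairs were at 1.25 for Klrk1 and Klre1, 1.17 for Klrd1 and Klre1, 1.11 for Klrd1 and Klrk1, and 1.12 for Klrc1 and Klrd1.

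**Figure D4:**
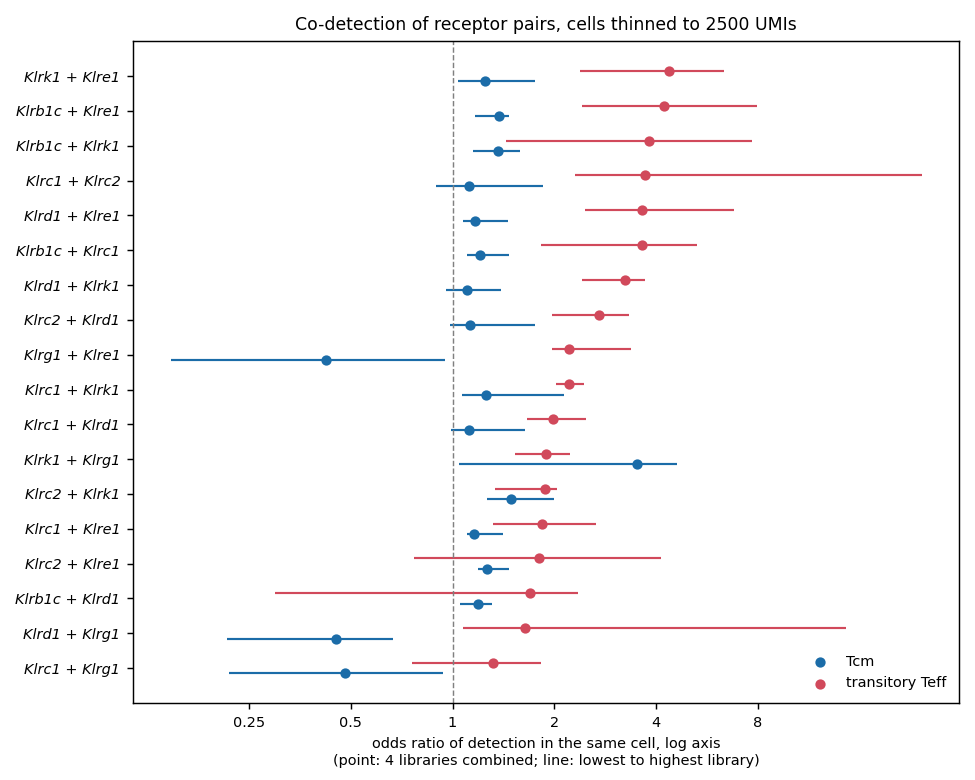
Odds ratio of co-detection at 2500 UMIs per cell (log axis) for the 18 receptor pairs with at least 5 expected cells in transitory Teff, in Tcm and in transitory Teff. Points combine the 4 libraries and lines span the lowest to the highest library, and Klrk1 with Klre1 is at 4.36 in transitory Teff and 1.25 in Tcm.

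Read against every gene detected in 5 to 95% of the thinned cells, few genes of transitory Teff passed the same rule with a receptor. With Klrd1, 3 genes passed (0.0577% of 5201), and they were Klre1, Klrk1 and Klrc1. With Klrk1, 8 genes passed (0.154%), among them all 4 receptors tested, and with Klre1 13 passed (0.25%), among them Klrk1, Klrd1 and Klrg1. Klrc1 had 13 (0.25%), with Klrd1 and Klrk1 and also Gzmm, a granzyme, at 3.30 and Ly6c2 at 2.27. Klrg1 had the widest set, 56 genes (1.08%), with Klrk1 and Klre1 among them and led by genes of effector differentiation: granzyme A (Gzma) at 5.53, S100a10 at 4.99 and the transcription factor Zeb2 at 4.22. Actn1 was at the low end with Klrg1, at 0.174. In Tcm, 0 of 5 receptors passed with any receptor, and the rule was met by 3 genes for Klrb1c (0.0591% of 5075), 1 for Klrc1 (0.0197%), 2 for Klrc2 (0.0394%) and 0 for Klrd1, Klrk1 and Klre1. Those of Klrb1c were the adaptors Fcer1g, at 1.99, and Tyrobp, at 1.97, and Antxr2, at 1.68. Those of the other genes were Tars for Klrc1, at 1.63, and Tnrc18 and Spata6 for Klrc2, at 1.83 and 1.76. By the count of receptor pairs other clusters lay between, with 10 of 18 passing in cycling cells and 8 of 19 in GzmB+ Teff. It was 6 of 18 in GzmA+ Tex, 6 of 18 in TIM-3+ Tex, 5 of 19 in TIGIT+ Teff and 4 of 9 in Tn. The share of all genes that pass was not taken in these clusters. By median odds ratio they did not all lie between: it was 2.29 in cycling cells, 2.28 in TIGIT+ Teff, 2.20 in GzmB+ Teff and 2.16 in GzmA+ Tex. It was 1.89 in TIM-3+ Tex and 1.59 in Tn, against 2.21 in transitory Teff. Each library had to pass, and TIM-3+ Tex had 31 cells in library 3 and TIGIT+ Teff 50 in library 2.

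The Tcm cells were described by markers of naive, memory, CD8 T and NK cells, and the label itself was not tested. Ccr7 and Il7r, taken here as naive markers, stood at 26.3 and 25.5 CPM in Tcm, against 226 and 395 CPM in Tn. The paper also ties Il7r to memory T cells. In the Teff and Tex clusters together Ccr7 was at 25.1 CPM and Il7r at 69.4 CPM, so Il7r was lower in Tcm than there. Of memory markers, Cd44 was at 83.7 CPM in Tcm and 54.9 CPM in Tn, and Eomes at 160 and 105 CPM. Ly6c2 was at 1474 and 1731 CPM and Il2rb at 965 and 458 CPM, and none of these memory markers was counted as higher. Cd3e was at 894 to 984 CPM in Tcm and at 752 to 816 CPM in Tn, and Trac, the TCR alpha constant gene, was at 214 to 253 and 169 to 213 CPM. A Cd8a UMI was found in 79.8% of Tcm cells. Per the paper's methods cells were kept for expression of Cd3e/g and Cd8a, so the values of these genes depend on that filter. Cd8b1, the CD8 beta chain, was at 196 to 242 CPM in Tcm, against 1098 to 1331 CPM in Tn. The summed level of 6 NK cell markers was 643 to 725 CPM in Tcm, with 0 of the 6 at zero, against 183 to 209 CPM in Tn. Among them were Fcer1g, at 229 to 315 CPM, and Tyrobp, at 91.7 to 178 CPM, whereas Ncr1 (NKp46), which defines NK cells, was at 3.47 to 9.77 CPM. A TCR was called in 2700 of 3418 Tcm cells (79.0%). The receptors were set side by side in Tcm cells with and without a TCR: at 2500 UMIs Klrb1c was in 41.7% and 39.97%, Klrc1 in 60.9% and 61.6%, Klrk1 in 62.2% and 63.4%, and Klre1 in 57.6% and 54.6%. The invariant TRAV11 with TRAJ18 rearrangement of NKT cells was found in 1 of 1875 Tcm cells with a TCR and a Klrb1c UMI. Of these cells 92.0% carried a clonotype seen in 1 cell of the library only, compared to 91.8% of those without a Klrb1c UMI.

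Within Tcm, cells with a Klrb1c UMI at equal depth (1413 cells) were set beside those without one (2005 cells). Fcer1g was found in 45.8% and 29.6%, Tyrobp in 25.5% and 14.8%, Klrk1 in 66.7% and 59.5%, and Klre1 in 61.6% and 53.8% of them. Cd8b1 went the other way, at 24.5% and 34.2%, as did Cd8a, at 45.6% and 53.9%, and Trac, at 38.1% and 42.8%. Each of these differences had the same direction in all 4 libraries, as had those of Il2rb, the IL-15 and IL-2 receptor beta chain (92.1% and 87.4%), and Ncr1 (1.70% and 0.399%). Klrc2 did not differ in a steady direction, at 20.9% and 19.8%, and was higher in 2 of 4 libraries. Nor did Cd3e, at 91.6% and 91.2%, which was higher in 3 of 4. The cells had been filtered on Cd3e/g and Cd8a beforehand.

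Genes that work with the receptors were followed as lists. Of 9 partners and adaptors, 2 were higher in Tcm than in Tn: Tyrobp, at 160 against 9.08 CPM, and Fcer1g, at 263 against 11.3 CPM. Hcst, the adaptor of NKG2D, was at 1260 and 759 CPM and was not counted. The median of the list was 0.63 on the log2 scale, where that of all genes was 0.07. Of 24 other lectin-like genes of the NK complex, 22 were in the table and 16 were tested, and 6 were higher in Tcm. They were Klrb1f and the Ly49 receptors Klra1, Klra3, Klra6, Klra7 and Klra9, and Klra7 was the highest, at 317 against 24.5 CPM (list median 0.75). Of 15 ligands, 5 were tested and 0 passed, with Qa-1 (H2-T23) at 505 CPM in Tcm and 356 CPM in Tn (median 0.30). Of 11 regulators, 0 passed, with Il2rb at 965 and 458 CPM (median 0.45).

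In the Teff and Tex clusters together over Tn, 3 partners passed (Tyrobp, Fcer1g and Ptpn11), along with 2 regulators, Zeb2 at 35.7 against 2.29 CPM and Prdm1 (Blimp-1) at 42.2 against 2.48 CPM, and with 0 lectin-like genes and 0 ligands. Among the 5 clusters Tyrobp and Fcer1g were highest in GzmA+ Tex, at 209 and 232 CPM, against 15.6 to 64.7 and 26.0 to 73.3 CPM in the other 4. The macrophage markers Lyz2, Cd74, Apoe and C1qa were counted as higher in the same comparison and were also highest in GzmA+ Tex (Cd74 at 482 CPM, against 9.76 to 23.8 CPM in the other 4), and their part in the result for both adaptors was not tested. In Tcm over these clusters, Fcer1g and the lectin-like genes Klra1, Klra3, Klra6 and Klra7 were higher, 0 ligands passed, and Prdm1 was lower. In cycling cells over these clusters only the ligand Ulbp1 (MULT1) passed among the 4 lists, at 33.5 against 8.64 CPM.

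The TCR libraries gave a measure that the rule for the genes and the clustering did not use. Clones were called expanded where at least 2 cells of a library shared a clonotype, and cells of expanded clones were compared with single-cell clones of the same cluster and library. UMIs were summed per library and clone class and tested with edgeR's quasi-likelihood test over all genes, with library as a block and Benjamini-Hochberg adjustment. The libraries served as replicates whatever their treatment. With the block, p-values rest on how the difference between clone classes varied among the libraries used. At least 20 cells per class in 3 libraries were needed, which left transitory Teff, GzmB+ Teff, cycling cells and, without library 3, GzmA+ Tex. Tcm could not be tested, with 69, 16, 12 and 121 expanded cells in libraries 1 to 4. Klrb1c stood at 230, 231, 247 and 274 CPM in these cells and at 224, 234, 237 and 271 CPM in single-cell clones of Tcm. For Klrc2 the values were 101, 76.9, 67.3 and 87.7 CPM against 105, 79.8, 89.8 and 95.4 CPM.

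**Figure D5:**
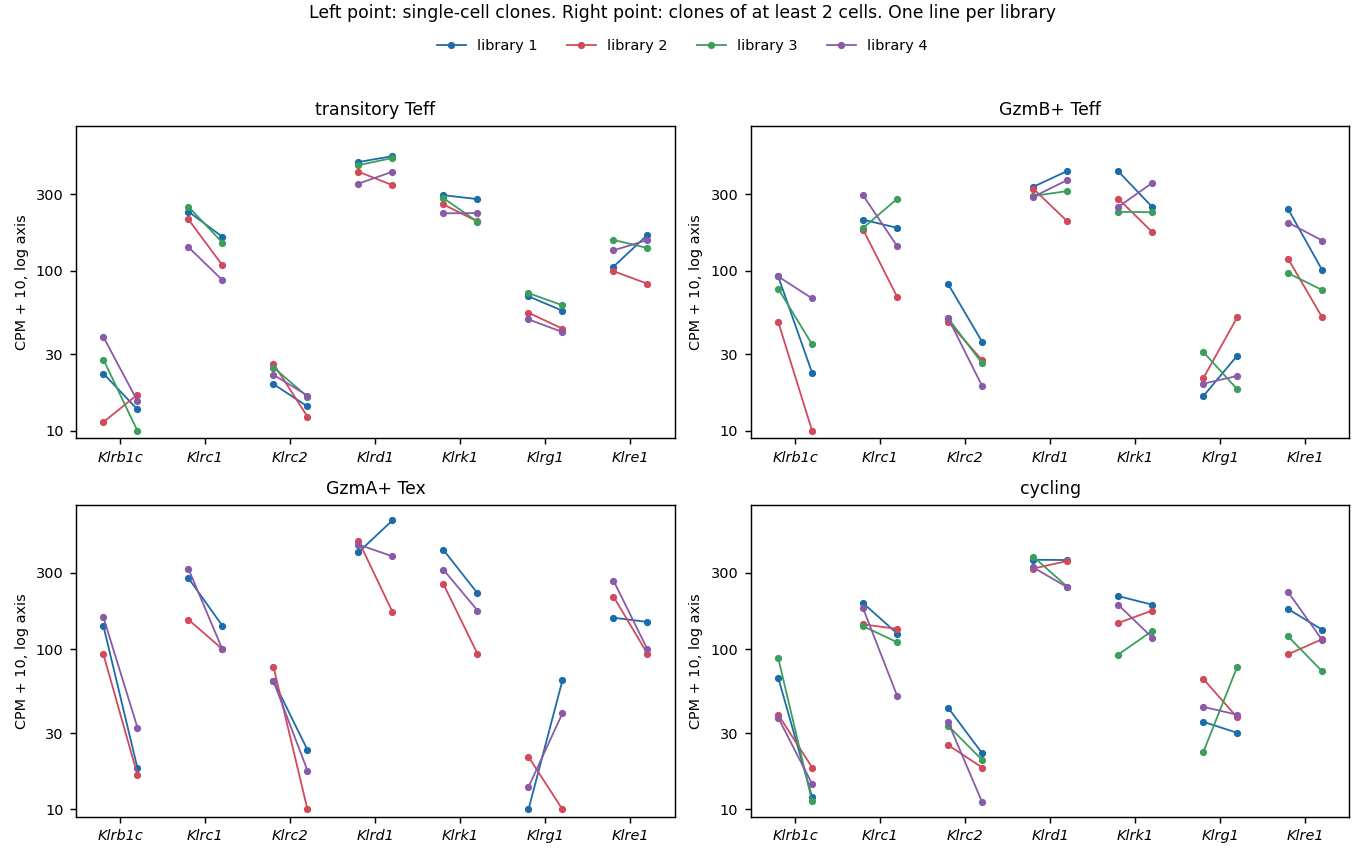
Level of each receptor gene (CPM + 10, log axis) in single-cell clones (left point) and clones of at least 2 cells (right point) of 4 clusters, with 1 line per library. All lines of Klrc2 fall in each cluster, as do those of Klrc1 in transitory Teff and those of Klrb1c in GzmB+ Teff, GzmA+ Tex and cycling cells.

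NK1.1 and NKG2C were lower in expanded clones of each cluster where they were tested, which left out Tcm. NKG2A was lower in 3 of 4 clusters. In GzmA+ Tex, Klrb1c stood at 8.12, 6.43 and 22.4 CPM in expanded clones of libraries 1, 2 and 4 and at 130, 82.8 and 148 CPM in single-cell clones. The groups did not overlap, and the log2 fold change was -3.38 ± 0.37 (SE; edgeR adjusted p = 2.19e-09). In cycling cells Klrb1c was at 1.91, 8.27, 1.22 and 4.41 CPM against 56.6, 29.1, 78.4 and 27.4 CPM, again without overlap (-3.76 ± 0.44, edgeR adjusted p = 0.000142). In GzmB+ Teff it was at 12.97, 0, 24.6 and 57.1 CPM against 82.1, 38.0, 67.3 and 82.0 CPM (-1.40 ± 0.35, edgeR adjusted p = 0.0118). It was lower in each library there, though library 4 of the expanded clones lay above library 2 of the single-cell clones. The value of 0 came from 33 cells, which allows a level of up to 17.6 CPM. In transitory Teff Klrb1c and Klrc2 had too few UMIs to be tested.

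NKG2C moved in the same way. Klrc2 was at 25.9, 17.6, 16.4 and 9.02 CPM in expanded clones of GzmB+ Teff against 72.5, 38.0, 40.4 and 40.6 CPM (-1.71 ± 0.35, edgeR adjusted p = 0.00245), without overlap. In GzmA+ Tex it was at 13.5, 0 and 7.47 CPM against 53.6, 67.7 and 53.2 CPM (-2.80 ± 0.57, edgeR adjusted p = 0.000309). In cycling cells it was at 12.4, 8.27, 10.4 and 1.10 CPM against 33.1, 15.2, 23.3 and 24.9 CPM (-1.80 ± 0.39, edgeR adjusted p = 0.0148). The groups did not overlap in any of the 3 clusters.

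NKG2A was the only receptor tested in transitory Teff that passed the threshold. Of the receptors not tested there, Klrc2 was lower in each library, at 2.28 to 6.61 CPM against 9.59 to 16.2 CPM. Klrb1c was lower in 3 of 4 libraries of transitory Teff. Klrc1 was at 153, 98.0, 140 and 77.2 CPM in expanded clones there and at 224, 199, 241 and 130 CPM in single-cell clones (-0.78 ± 0.11, edgeR adjusted p = 0.00055), lower in each library, where 1.45% of 6708 genes were lower and 1.45% higher. It also fell in GzmA+ Tex, from 268, 143 and 308 CPM to 130, 90.1 and 89.7 CPM (-1.34 ± 0.22, edgeR adjusted p = 6.83e-06). In cycling cells it fell from 184, 133, 129 and 170 CPM to 115, 124, 101 and 41.1 CPM (-0.85 ± 0.23, edgeR adjusted p = 0.0439). GzmB+ Teff missed the threshold at -0.68 ± 0.23 (edgeR adjusted p = 0.0677).

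NKG2D fell in GzmA+ Tex. Klrk1 was at 214, 83.6 and 164 CPM in expanded clones there against 406, 245 and 304 CPM (-1.15 ± 0.19, edgeR adjusted p = 7.13e-06), and its log2 fold change was -0.23 in transitory Teff, -0.32 in GzmB+ Teff and -0.13 in cycling cells, where the edgeR adjusted p was 0.329, 0.329 and 0.780. Klre1 fell in GzmB+ Teff, to 90.8, 41.1, 65.7 and 144 CPM from 232, 108, 86.5 and 190 CPM (-0.94 ± 0.20, edgeR adjusted p = 0.00422). It also fell in GzmA+ Tex, to 138, 83.6 and 89.7 CPM from 147, 203 and 258 CPM (-1.02 ± 0.23, edgeR adjusted p = 0.00115), and in library 1 the step was small.

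CD94 passed in 0 of the 4 clusters, with log2 fold changes of 0.05 ± 0.10, -0.08 ± 0.16, -0.30 ± 0.19 and -0.28 ± 0.14 in transitory Teff, GzmB+ Teff, GzmA+ Tex and cycling cells. KLRG1 was at -0.36 ± 0.16 in transitory Teff (edgeR adjusted p = 0.268) and -0.04 ± 0.32 in cycling cells (edgeR adjusted p = 0.982), and had too few UMIs in the others. In GzmA+ Tex its values were 54.1, 0 and 29.9 CPM in expanded and 0, 11.3 and 3.80 CPM in single-cell clones, with groups that overlapped. In all, 1 of 5 receptors tested was lower in transitory Teff, 3 of 6 in GzmB+ Teff (6.34% of 4856 genes lower, 5.6% higher), 5 of 6 in GzmA+ Tex (6.35% of 3812 lower, 4.12% higher) and 3 of 7 in cycling cells (2.42% of 7897 lower, 2.29% higher). No receptor was higher in any of them. Whether a receptor changed more in one cluster than in another was not tested.

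Some calls rested on 1 library, by the edgeR adjusted p without it. In GzmB+ Teff, Klrb1c was at 0.0813 without library 1 and 0.0550 without library 3, and Klre1 at 0.0548 without library 1. In GzmA+ Tex without library 4, Klrc1 was at 0.0528, Klrc2 at 0.0933 and Klre1 at 0.298. In cycling cells, Klrc1 was at 0.257 without library 1 and 0.137 without library 4, and Klrc2 at 0.122 without library 1. Klrc2 in GzmB+ Teff, Klrb1c and Klrk1 in GzmA+ Tex, Klrb1c in cycling cells and Klrc1 in transitory Teff passed without each library in turn. Calls went the other way for Klrc1 in GzmB+ Teff without library 3 (0.00584), Klrk1 in GzmB+ Teff without library 4 (0.0412) and Klre1 in cycling cells without library 2 (0.00886). Without the library block, Klrc1 in transitory Teff had the same fold change at an adjusted p of 0.101, and Klre1 in GzmB+ Teff (0.0810) and Klrc1 (0.218) and Klrc2 (0.0825) in cycling cells also missed the threshold. With DESeq2, Klrc2 in GzmB+ Teff was at an adjusted p of 0.0630, Klre1 in GzmA+ Tex at 0.120 and Klrc1 in cycling cells at 0.501.

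Depth and other markers moved with clone size in the same cells, and the part of the markers in the result was not tested. Cells of expanded clones had a median of 4904.5 UMIs in transitory Teff, 4766 in GzmB+ Teff, 6208.5 in GzmA+ Tex and 11045 in cycling cells, against 5908, 7733, 7546 and 12260 in single-cell clones. With every cell at 2500 UMIs, Klrc1 was at -0.86 in transitory Teff (edgeR adjusted p = 0.000744) and -1.61 in GzmA+ Tex (0.00383), Klre1 was at -1.41 in GzmB+ Teff (0.00126) and -1.40 in GzmA+ Tex (0.0284), Klrk1 in GzmA+ Tex (0.0867) and Klrc1 in cycling cells (0.322) missed the threshold, and Klrb1c and Klrc2 had too few UMIs to be tested. The naive markers Ccr7, Il7r and Dapl1 were lower in expanded clones of transitory Teff, where Ccr7 and Il7r fell by 2.12 on the log2 scale each. Lef1 was lower along with these in GzmB+ Teff and cycling cells, and Il7r and Lef1 were lower in GzmA+ Tex. Of the 5 exhaustion markers, 4 were higher in transitory Teff, 4 of 4 tested in GzmB+ Teff and in GzmA+ Tex, and 5 in cycling cells, with PD-1 (Pdcd1) at 1.27 in transitory Teff and 3.26 in GzmB+ Teff. The NK cell markers Fcer1g and Txk were lower in GzmB+ Teff, GzmA+ Tex and cycling cells, and Tyrobp in the first and last of these. Of the other lectin-like genes of the NK complex, 5 of 7 tested were lower in GzmB+ Teff, 5 of 6 in GzmA+ Tex and 5 of 8 in cycling cells, Klra6, Klra7 and Klra3 among them each time, whereas 0 of 5 passed in transitory Teff. In cells without a UMI of Ccr7 or Il7r, an alternative chosen after seeing the data, Klrc1 in transitory Teff was at -0.47 ± 0.19 (edgeR adjusted p = 0.438), over 958 expanded and 204 single cells, and missed the threshold. So did Klrc1 (0.0509) and Klrc2 (0.0847) in cycling cells, whereas Klrb1c there was at -4.09 (0.000198). In GzmB+ Teff and in GzmA+ Tex, 5 receptors were lower in these cells, Klrb1c at -2.33 (0.000139) and -3.90 (0.000228). Klrg1 fell in transitory Teff of this setting, by 0.89 on the log2 scale (edgeR adjusted p = 0.0408). GzmA+ Tex also held macrophage transcripts, at a summed 764 to 1448 CPM for 5 markers against 4.30 to 77.0 CPM in the other clusters, with plasma cell markers at up to 425 CPM.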

How the data were processed

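Single CD8+ T cells were captured with the 10x 5′ platform for gene expression and TCR. Reads were processed with Cell Ranger 7.00 on mm10 per the submitters' processing notes, and, per the paper's methods, downsampled across libraries and filtered on UMIs, mitochondrial share, Cd3e/g and Cd8a, and clustered with Monocle3. The deposited expression values are UMI counts per gene and cell, which the authors left unnormalized. Of the columns describing each cell, the deposited mitochondrial content is a fraction. Clonotypes came from the table that the authors made with scRepertoire.

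UMIs were summed per cluster and library (CPM). Per-cell shares were also taken with every cell thinned to 2500 UMIs (seed 7). No cell was left out, no doublets were removed, 112 cells shared a barcode with another library, and 837 cells had a Leiden number that mostly belongs to another cluster name. Genes with at least 100 UMIs entered the ratios. Symbols and coordinates came from GENCODE M21 (GRCm38), which named 17534 genes. Intervals were exact Poisson (CPM), conditional binomial (ratios) and Clopper-Pearson (shares) at 95%, and 0 counts were taken to allow up to 3. Clone classes were tested with edgeR 4.0.16 in R 4.3.3 (filterByExpr, TMM, quasi-likelihood, Benjamini-Hochberg over all genes tested, threshold 0.05). The test gives no SE, so the SE printed is the absolute log2 fold change divided by the square root of its F statistic. The library number is shared by both classes because their cells come from the same library. Its fit without the block, DESeq2 1.42.0, no TMM, no filter, thinned cells, larger clones, clonotypes from TRB alone and leaving out each library were alternatives. Scripts were tested on simulated data (Python 3.11.15, numpy 2.4.6, scipy 1.17.1, pandas 2.3.3, matplotlib 3.10.9).

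The members and gene lists were chosen with earlier results of these data known. Named were all 7 receptors, 2 to 4 genes of each list, and per receptor the 3 genes of at least 1000 UMIs with the highest Pearson correlation of log2(CPM + 10) over 32 cluster and library profiles. Genes named for co-detection were chosen after their values were seen. Values of 1 naive marker gene, and a stricter form of an added alternative that used it, are not reported here, and the form without it replaced it after the results of the stricter one were known.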

Additional observations from a re-analysis of the deposited data

How the results depend on the processing

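The count of 5 receptors higher in Tcm than in Tn was 4 at a fold of 4 and 5 under every other alternative run, and no receptor changed direction in any comparison that had been called. Of the receptors higher in the Teff and Tex clusters than in Tn, 4 became 2 with clusters named by Leiden number, 0 at a fold of 4 and 1 with 50 CPM added. Of those higher in Tcm than in these clusters, 3 became 5 at a fold of 1.5, 0 at a fold of 4 and 1 with 50 CPM added, and the 1 lower became 0 at a fold of 4 and 0 with 50 CPM added. The pairs that passed in Tcm went from 4 to 0 at 2500 UMIs per cell. Leaving out each library gave 5 to 5, 4 to 4, 3 to 4 and 1 to 1 receptors in these comparisons, 4 to 6 pairs in Tcm and 16 to 17 in transitory Teff. By Leiden number the log2 ratio of Klrb1c between Tcm and Tn was 3.49 in place of 4.53.

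Receptors lower in expanded clones numbered 1 in transitory Teff, 3 without a filter on low counts (Klrb1c and Klrc2 added) and 0 without the replicate block. They numbered 3 in GzmB+ Teff, 5 with clones of at least 5 cells and 5 in cells without Ccr7 or Il7r UMIs (Klrc1 and Klrk1 added). They numbered 5 in GzmA+ Tex, 2 with DESeq2 (adjusted p not given for Klrb1c and Klrc2), 2 at 2500 UMIs per cell, and 1 was higher without a filter (Klrg1). They numbered 3 in cycling cells, 1 without the replicate block, 0 at 2500 UMIs per cell and 1 in cells without Ccr7 or Il7r UMIs. Leaving out each library gave 1 to 1, 1 to 4, 2 to 5 and 1 to 4 lower and 0 to 0 higher. In transitory Teff 1 receptor was lower in cells without Ccr7 or Il7r UMIs, Klrg1 in place of Klrc1. The setting without Ccr7 or Il7r UMIs and the one without UMIs of macrophage, plasma, B or erythroid markers were chosen after seeing the data. The second left 1 library in GzmA+ Tex and gave no value there, and 1, 3 and 3 receptors in the other clusters. Fewer cells and genes were tested in both and at 2500 UMIs per cell, and the cause of the other changes was not tested. The library block pairs classes from the same mice, and of the receptor calls the fit without it changed those named with the clone results.

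Genes called higher and lower over all genes were 97 and 97 in transitory Teff, 32 and 35 with DESeq2, 31 and 34 without the block, 219 and 208 without a filter, 39 and 44 at 2500 UMIs and 10 and 17 without Ccr7 or Il7r UMIs. They were 272 and 308 in GzmB+ Teff, 112 and 168 with DESeq2, 496 and 216 without TMM, 272 and 443 without a filter, 137 and 184 at 2500 UMIs and 122 and 185 without these UMIs. They were 157 and 242 in GzmA+ Tex, 42 and 93 with DESeq2, 242 and 183 without TMM, 96 and 151 without the block, 64 and 111 at 2500 UMIs and 64 and 116 without these UMIs. They were 181 and 191 in cycling cells, 80 and 134 with DESeq2, 48 and 81 without the block, 343 and 370 without a filter, 32 and 38 at 2500 UMIs and 46 and 57 without these UMIs. Cells per cluster and library went down to 31, for TIM-3+ Tex in library 3.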

Other observations

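Other genes followed the receptors across the 32 profiles of cluster and library. These correlations of log2(CPM + 10) are descriptions, since the profiles share libraries, depth and cells, and say nothing of shared function or control. Klrb1c was most like Cym (r = 0.97), the Ly49 receptor gene Klra7 (0.96) and Ccdc136 (0.93), and Cym stood at 75.6 CPM in Tcm against 4.86 CPM in Tn. Klrc2 was most like Cym (0.91), Klra7 (0.90) and Il12rb2 (0.90), an IL-12 receptor chain. Klrc1 was most like Ccdc136 (0.88), Zfp512 (0.87) and Asb2 (0.86). Klrk1 and Klre1 shared Efhd2 (0.93 and 0.93) and Cd160 (0.90 and 0.91), an Ig-family receptor of cytotoxic cells, with Gem (0.92) added for Klrk1 and Tcrg-C4 (0.89) for Klre1. Klrd1 had weaker partners in Arhgap9 (0.80), A430088P11Rik (0.75) and Dtx3 (0.75). Klrg1 was most like Lsp1 (0.90), Lat (0.90) and Cd48 (0.87).

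Among the receptors themselves, r was 0.93 for Klrb1c and Klrc2, 0.91 for Klrk1 and Klre1 and 0.89 for Klrc1 and Klrc2, and it ran from -0.37 to 0.16 for Klrg1 with the other 6.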
